A study of Mus musculus with 5 samples.

Results

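Enteroendocrine cell genes were described in mouse colon by 10 genes that mark the hormone-secreting cells of the gut epithelium: Chga, Chgb, Tph1, Pyy, Gcg, Insl5, Cck, Sct, Neurod1 and Neurog3. All probes named for them by their RefSeq accession were taken, which gave 12 probes for the 10 genes, of 32994 probes with a gene symbol on the array. Tph1 had 3 probes and each of the others had 1. The arrays were single-colour Agilent mouse arrays of whole colon from mice of strain C57BL/B6. The Control group had 2 arrays and the NT-3N 3 hr group had 3 arrays. NT-3N activates the IL-11 receptor. The methods describe it as a human IL-11 altered in its linker region for greater stability and activity. It was injected intravenously and the colon was removed 3 hr later. The injected mice were 8 weeks old. The labels and the methods give the dose with different units, 10 mg and 10 µg. The controls are described as untreated and no vehicle injection is named for them, so the injection and the agonist cannot be told apart. The question asked of the series was which colon genes respond to signalling through the IL-11 receptor.

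Enteroendocrine cells are scattered single cells of the gut epithelium that sense the lumen and release peptide hormones or serotonin from dense-core granules. They arise from crypt progenitors that switch on the transcription factor Neurog3 and then Neurod1, and their hormones differ along the gut. L cells, which are common in the colon, make peptide YY, glucagon-like peptides and INSL5, and enterochromaffin cells make serotonin.

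Each of the 12 probes gave a signal well above background on every array, and no spot was saturated. Between 70.6% and 73.0% of probes were well above background per array, and the 5 arrays shared 1 slide and 1 scan time. Of 12 epithelial marker genes 11 were tested, all of them well above background on every array. Several genes of the exocrine pancreas were high on Control replicate 1 and NT-3N replicate 1. On these arrays the amylase gene Amy2a5 had log2 signals of 14.31 and 11.21, against 4.40 on Control replicate 2 and 2.42 and 2.74 on NT-3N replicates 2 and 3. Cela1, the brightest gene of the pancreas list, ran otherwise. It had log2 signals of 15.49 and 14.82 in Control and of 14.99, 15.38 and 15.52 in NT-3N. Each of the 10 genes is also given without Control replicate 1 and NT-3N replicate 1. In that setting Control replicate 2 is the only control. There the B cell marker list had a summed signal of 1169, against 4513 to 5413 on the other arrays. On Control replicate 2, 5 of its 7 genes were at their lowest, but not Ms4a1 or Pax5. The part of this difference in the values was not tested.

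None of the 10 genes passed an adjusted p of 0.05 between NT-3N and Control, in limma with Benjamini-Hochberg adjustment over 32917 features, of which 0.143% passed (47 features: 41 higher, or 0.125%, and 6 lower, or 0.0182%). None had an unadjusted p under 0.05 either, a threshold that 9.62% of all features passed (4.95% as higher and 4.67% as lower in NT-3N). The arrays of the 2 groups overlapped for each of the 10 genes, whereas for 28.4% of all features they did not overlap (13.5% higher and 14.8% lower in NT-3N). By the sign of the log2 fold change alone, 6 of the 10 genes stood higher in NT-3N, beside 46.4% of all features, and 4 stood lower. The log2 fold changes had a median of 0.052 and ran from -0.37 to 0.41, beside a median of -0.019 over all features. Leaving out Control replicate 1 and NT-3N replicate 1 together was chosen after seeing the data. There Chga, Chgb, Tph1, Sct, Gcg and Cck were below 0, and Insl5, Neurod1, Pyy and Neurog3 above. That fit keeps a single control, so its p-values hold no spread between controls. An exact permutation test of the 5 arrays, two-sided, gave p from 0.4 for Neurod1 to 0.9 for Pyy, and 0.1 is the smallest p that 10 splits allow. In whole colon, fewer cells of a type and less RNA per cell cannot be told apart. The methods describe the NT-3N arrays as separate mice, and for the controls only a number of samples is given.

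**Figure D1:**
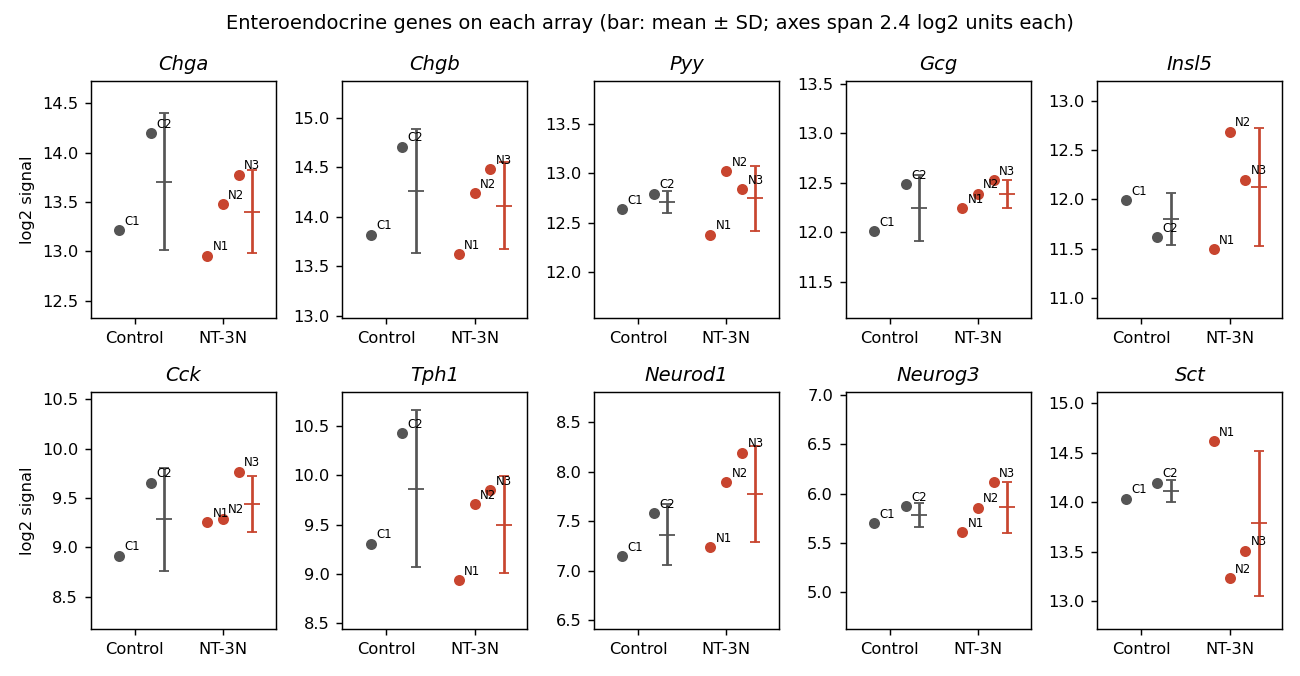
Quantile-normalized log2 signal (vertical axis) of the 10 genes on the 2 Control and 3 NT-3N arrays (points, with C for Control and N for NT-3N and the replicate number), with bars for the mean and SD of each group. Each panel spans the same log2 distance, and the points of the 2 groups overlap in every panel.

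The chromogranins Chga and Chgb are acidic proteins packed with hormones in the dense-core granules and are used as general markers of enteroendocrine cells. Chga had log2 signals of 13.21 and 14.19 in Control and of 12.96, 13.48 and 13.78 in NT-3N. Chgb had log2 signals of 13.82 and 14.71 in Control and of 13.62, 14.24 and 14.48 in NT-3N. Both genes were highest on Control replicate 2 and lowest on NT-3N replicate 1, and the controls stood farther apart than the group means did. Control replicate 2 exceeded Control replicate 1 by 0.98 for Chga and by 0.89 for Chgb on the log2 scale. The log2 fold change of Chga was -0.30 ± 0.34 (SE, adjusted p = 0.802 by limma), with a 95% interval of the fold from 0.463 to 1.42. That of Chgb was -0.15 ± 0.33 (SE, adjusted p = 0.907 by limma), with an interval of the fold from 0.521 to 1.56. Without Control replicate 2 both were on the other side of 0, at 0.19 for Chga and 0.30 for Chgb, and without Control replicate 1 they were -0.79 and -0.59. Without NT-3N replicate 1 Chgb was at 0.098, and without Control replicate 1 and NT-3N replicate 1 together Chga was at -0.57 and Chgb at -0.35 (adjusted p = 0.145 and 0.273 by limma).

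Tph1, the rate-limiting enzyme of serotonin synthesis in enterochromaffin cells, had log2 signals of 9.31 and 10.42 in Control and of 8.94, 9.70 and 9.85 in NT-3N for its brightest probe. It spanned 1.49 on the log2 scale over the 5 arrays, the widest range of the 10 genes. Its log2 fold change was -0.37 ± 0.39 (SE, adjusted p = 0.792 by limma), with a 95% interval of the fold from 0.402 to 1.49. The other 2 probes gave log2 fold changes of -0.55 and -0.13, and all 3 probes were highest on Control replicate 2 and lowest on NT-3N replicate 1. As with the chromogranins, the value depended on 1 control, with 0.19 without Control replicate 2 and -0.93 without Control replicate 1. Without Control replicate 1 and NT-3N replicate 1 together it was -0.65 (adjusted p = 0.103 by limma). Mast cells also make serotonin in mice. Their marker list had 7 of 9 genes tested, a summed signal of 5742 to 6881 in Control and of 4703 to 6896 in NT-3N, and its lowest mean deviation, -0.64, on Control replicate 2, where Tph1 was highest. On that array 5 of the 7 mast cell genes were at their lowest and the other 2, Tpsb2 and Kit, at their highest. The part of mast cells in the Tph1 values was not tested.

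The 3 genes are shown with the 250 bases that precede their first annotated start, beside those of Sct, because Chga lay close to Chgb and to Tph1 over the arrays and Sct ran differently. Sequences are RefSeq sequence of assembly GRCm38.p6, printed 5′ to 3′ on the strand of the gene. Capitals mark E-boxes (CANNTG), the letters bound by basic helix-loop-helix factors such as Neurog3 and Neurod1, and the cAMP response element (TGACGTCA), both searched on both strands and overlapping nowhere in these windows. Chga lies at chr12:102554691-102554940 (plus strand), Chgb at chr2:132781392-132781641 (plus), Tph1 at chr7:46672538-46672787 (minus, the first of 2 starts) and Sct at chr7:141279134-141279383 (minus).
Chga: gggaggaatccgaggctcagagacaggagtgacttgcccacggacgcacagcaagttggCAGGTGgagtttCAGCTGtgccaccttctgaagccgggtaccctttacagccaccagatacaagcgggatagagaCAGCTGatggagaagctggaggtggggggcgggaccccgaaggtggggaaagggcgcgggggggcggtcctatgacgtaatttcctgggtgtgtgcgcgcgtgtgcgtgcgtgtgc
Chgb: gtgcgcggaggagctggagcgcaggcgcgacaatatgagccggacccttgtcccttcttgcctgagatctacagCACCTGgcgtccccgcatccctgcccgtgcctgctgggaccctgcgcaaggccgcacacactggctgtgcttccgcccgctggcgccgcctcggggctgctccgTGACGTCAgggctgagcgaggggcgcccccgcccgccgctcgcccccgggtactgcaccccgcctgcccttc
Tph1: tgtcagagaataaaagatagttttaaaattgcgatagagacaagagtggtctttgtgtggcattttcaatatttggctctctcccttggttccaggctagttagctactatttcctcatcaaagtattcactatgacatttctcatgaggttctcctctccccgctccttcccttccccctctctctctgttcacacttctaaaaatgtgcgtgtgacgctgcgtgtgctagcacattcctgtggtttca
Sct: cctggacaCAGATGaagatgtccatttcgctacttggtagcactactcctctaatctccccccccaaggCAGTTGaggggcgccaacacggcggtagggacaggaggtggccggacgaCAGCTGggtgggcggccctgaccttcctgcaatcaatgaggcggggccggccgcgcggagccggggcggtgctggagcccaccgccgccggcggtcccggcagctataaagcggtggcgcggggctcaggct
The Chga window held E-boxes that began 191, 179 and 116 bases before the start, and the Sct window held them at 242, 181 and 132. Chgb had 1 E-box at 176 and 1 cAMP response element at 72, and neither Tph1 window had either motif. The element was counted only as the full letters TGACGTCA, so near matches such as tgacgtaa in the Chga window were left out. Over all 10 genes, the window of the first start held an E-box in 9 genes and the cAMP response element in 1, beside 66.2% and 1.55% of 32851 mouse promoter windows of the same length. An E-box was therefore common in these windows, as in promoters at large.

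Among the hormones of L cells, Pyy, which encodes peptide YY, had log2 signals of 12.63 and 12.79 in Control and of 12.38, 13.02 and 12.84 in NT-3N. Gcg, the gene of proglucagon and so of the glucagon-like peptides, had log2 signals of 12.01 and 12.48 in Control and of 12.25, 12.39 and 12.52 in NT-3N. The NT-3N values of Pyy lay on both sides of the controls, and those of Gcg lay between or just above them. The log2 fold change was 0.032 ± 0.19 (SE) for Pyy and 0.14 ± 0.16 (SE) for Gcg, with adjusted p of 0.968 and 0.806 by limma. The 95% interval of the fold was 0.746 to 1.40 for Pyy and 0.844 to 1.44 for Gcg. Gcg is also made in pancreatic islets, and it was lowest on Control replicate 1, the array with the highest exocrine pancreas signal. The pancreas list had 9 of 9 genes tested and 5 detected above background on each array. Its summed signal was 29110 to 77520 in Control and 36030 to 47170 in NT-3N. The sum of 36030 was that of NT-3N replicate 1, where Cela1, the brightest gene of the list, was below its level on the other NT-3N arrays. The mean deviation of the list was 3.06 on Control replicate 1 and 1.04 on NT-3N replicate 1, against -1.28 to -1.43 on the other 3 arrays. Of the islet genes, Ins2 was well above background only on those 2 arrays, and Ins1 on all 5, with log2 signals of 5.32 and 5.02 in Control and of 5.04, 4.65 and 4.38 in NT-3N. Without both arrays Gcg was at -0.027 and Pyy at 0.14, and their part in the Gcg values was not tested.

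Insl5, a relaxin-family peptide of colonic L cells, had log2 signals of 11.99 and 11.62 in Control and of 11.50, 12.68 and 12.20 in NT-3N. NT-3N replicates 2 and 3 were above both controls and NT-3N replicate 1 was below both. The log2 fold change was 0.32 ± 0.33 (SE, adjusted p = 0.784 by limma), with a 95% interval of the fold from 0.721 to 2.17. Without NT-3N replicate 1 it was 0.63, without NT-3N replicate 2 it was 0.045, and without Control replicate 1 and NT-3N replicate 1 together it was 0.81 (adjusted p = 0.153 by limma). The 8 posterior Hox genes, which are expressed toward the distal end of the gut, had a summed signal of 29980 to 39230 in Control and of 26380 to 46460 in NT-3N, most of it from Hoxb13. By gene, 7 of the 8 were lowest on NT-3N replicate 1, where Insl5 was lowest, and 4 were highest on NT-3N replicate 2, where Insl5 was highest. Hoxa11 and Hoxc10 were highest on Control replicate 2, and Hoxc10 was lowest on NT-3N replicate 2. The part of these genes or of regional makeup in the Insl5 values was not tested.

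Cck, the gene of cholecystokinin, had log2 signals of 8.91 and 9.65 in Control and of 9.25, 9.29 and 9.76 in NT-3N. The log2 fold change of Cck was 0.15 ± 0.26 (SE, adjusted p = 0.872 by limma), with a 95% interval of the fold from 0.723 to 1.71. Control replicate 1 was the lowest array and NT-3N replicate 3 the highest. The value was -0.22 without Control replicate 1, and -0.13 where NT-3N replicate 1 was left out too.

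Sct, the gene of secretin, a hormone that stimulates bicarbonate secretion, had log2 signals of 14.04 and 14.20 in Control and of 14.62, 13.23 and 13.51 in NT-3N. NT-3N replicate 1 was above both controls and the other 2 NT-3N arrays were below both. The log2 fold change was -0.33 ± 0.38 (SE, adjusted p = 0.809 by limma), with a 95% interval of the fold from 0.418 to 1.51. Without NT-3N replicate 1 it was -0.74 (adjusted p = 0.0933 by limma), and without NT-3N replicate 2 it was -0.052. Without Control replicate 1 and NT-3N replicate 1 it was -0.82 (adjusted p = 0.0682 by limma), the smallest adjusted p of any of the 10 genes under 19 alternatives, of which that one was chosen after seeing the data.

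**Figure D2:**
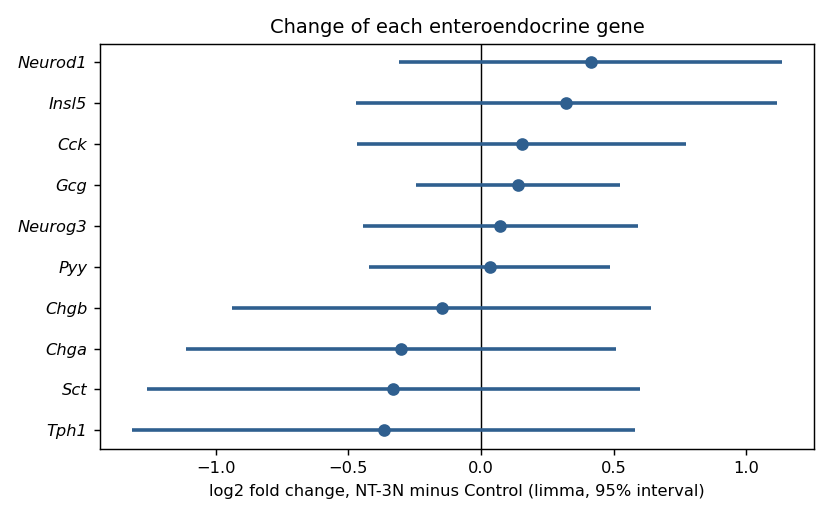
Log2 fold change of NT-3N over Control for the 10 genes (points, horizontal axis) with 95% confidence intervals from limma (bars). Every interval includes 0, and the points lie between -0.37 for Tph1 and 0.41 for Neurod1.

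The transcription factor Neurod1, which acts after Neurog3 in the making of enteroendocrine cells, had log2 signals of 7.14 and 7.58 in Control and of 7.24, 7.89 and 8.19 in NT-3N. NT-3N replicates 2 and 3 were above both controls and replicate 1 was between them. The log2 fold change was 0.41 ± 0.30 (SE, adjusted p = 0.700 by limma), the largest of the 10 in size, with a 95% interval of the fold from 0.807 to 2.19. Without NT-3N replicate 1 it was 0.68, without Control replicate 1 it was 0.19, and without both it was 0.47. Neurog3, the factor that commits progenitors to the endocrine fate, had log2 signals of 5.70 and 5.87 in Control and of 5.61, 5.86 and 6.12 in NT-3N. Neurog3 had a log2 fold change of 0.072 ± 0.21 (SE, adjusted p = 0.934 by limma), with a 95% interval of the fold from 0.734 to 1.51. The NT-3N values lay on both sides of the controls, and the log2 fold change was 0.11 without Control replicate 1 and NT-3N replicate 1.

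The 10 genes varied between arrays of 1 group more than most features did. Their median within-group SD was 0.474 on the log2 scale, beside 0.179 over all features, 0.306 over 73 other enteroendocrine genes and 0.123 over the epithelial markers. Fold changes of the size seen for most of the 10 genes could not be told from that spread. NT-3N replicate 1 was the lowest array for 6 of the 10 genes and Control replicate 1 for 3. Control replicate 2 was the highest for 3, NT-3N replicate 3 for 4 and NT-3N replicate 2 for 2. The mean deviation of the 10 genes was -0.24 and 0.24 on the 2 controls and -0.28, 0.065 and 0.21 on the 3 NT-3N arrays. Both arrays with low values were the ones where the pancreas list had its high mean deviations. The part of that list in the deviations of the 10 genes was not tested. Enteric neurons also express chromogranins, and their marker list had 11 of 11 genes tested. Its summed signal was 39930 to 41840 in Control and 34050 to 38330 in NT-3N. The sum was lowest on NT-3N replicate 2, and Snap25, the brightest gene of the list, was highest on NT-3N replicate 1. The mean deviation of the neuron list was lowest on NT-3N replicate 1, at -0.36, and that of the goblet cell list was -0.44 there. The part of these cells in the values was not tested.

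**Figure D3:**
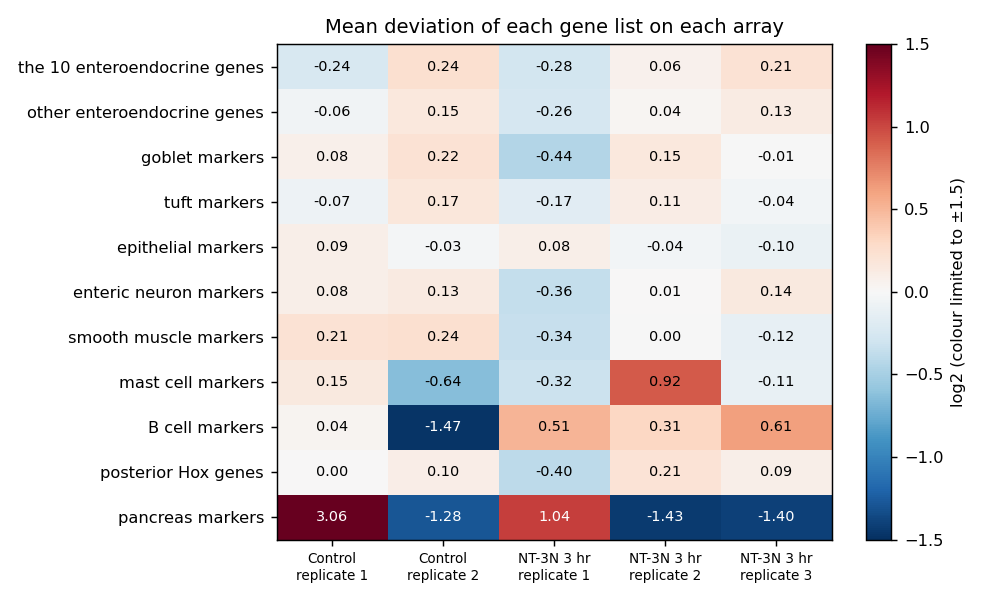
Mean deviation of each gene list from its own mean over the 5 arrays, on the log2 scale, with arrays in columns and lists in rows. The 10 enteroendocrine genes were at -0.24 and 0.24 on the Control arrays and at -0.28, 0.065 and 0.21 on the NT-3N arrays, while the pancreas list reached 3.06 on Control replicate 1.

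The profiles over the 5 arrays were set against those of 17942 features with a symbol, by the root mean square difference of log2 values centred on each gene, for the 6 genes that spanned at least 1 on the log2 scale. With 5 arrays many features lie close by, and the values are a description. Chgb was the third nearest feature to Chga, at 0.086, after Klhdc8a at 0.079 and Tpd52l1 at 0.080. Chga was the second nearest to Chgb, after Igsf11 at 0.057, and the third nearest was Ceacam10 at 0.092. Chga was also among the features nearest to Tph1, at 0.096, as was Cldn2 at 0.11. Chga with Chgb and Chga with Tph1 were the closest pairs of members, with 2 and 4 features nearer to Chga. Gcg with Neurog3 followed at 0.125, but they spanned only 0.52 and 0.51 on the log2 scale. For that pair 625 features lay nearer to Gcg. The nearest features to Insl5 were Hmcn1 at 0.078, Nxpe4 at 0.080 and Pappa2 at 0.081. Those to Neurod1 were Gm36027 at 0.068, Ripk2 at 0.076 and Pigb at 0.080, and those to Sct were Ren1 at 0.059, Grhl1 at 0.066 and H2-T3 at 0.082. The pair of members farthest apart was Insl5 and Sct, at 0.91, followed by Neurod1 and Sct at 0.84.

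**Figure D4:**
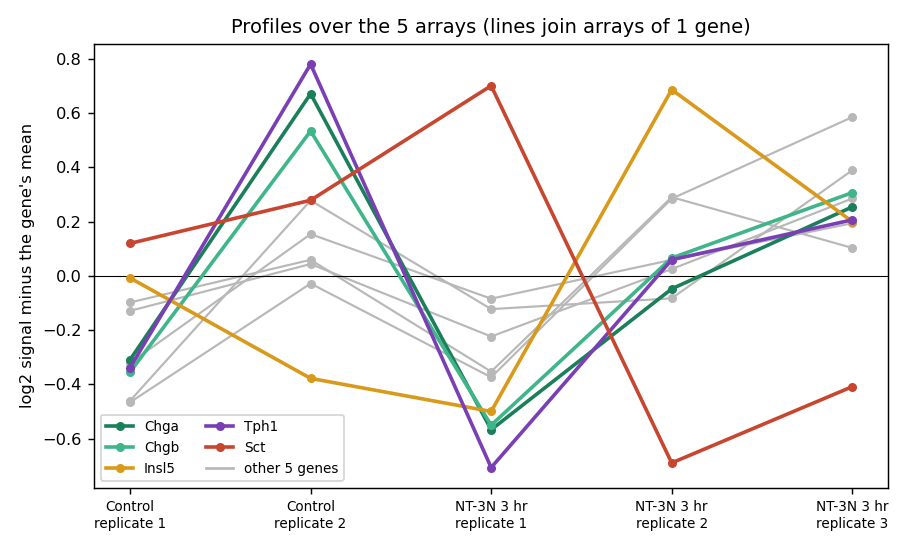
Log2 signal centred on each gene (vertical axis) on the 5 arrays (horizontal axis, with lines that join arrays only to guide the eye), with Chga, Chgb, Tph1, Insl5 and Sct in colour and the other 5 genes in grey. Chga, Chgb and Tph1 peak on Control replicate 2, and Sct is high on NT-3N replicate 1, where Insl5 is low.

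The genes called other enteroendocrine genes here were taken from 6 lists with 86 genes in all. The lists include receptors on the target cells of the hormones and genes also expressed in other cells. Of these 73 were tested, and Or51e2 had no probe named for it. None passed an adjusted p of 0.05 in limma. An unadjusted p under 0.05 was found for 10 of the 73 (4 higher and 6 lower in NT-3N). Of all features 9.62% had one (4.95% higher and 4.67% lower). The 4 higher genes included Gpr119 and Npy2r, each not well above background on 1 of the 2 controls. The arrays of the groups did not overlap for 16 of the 73 (21.9%), beside 28.4% of all features. The median log2 fold change was -0.14, beside -0.019 over all features, with 22 genes above 0 and 51 below. Without Control replicate 2 Npy2r alone passed (adjusted p = 0.0472 by limma), against a single control on which it was not well above background, so no fold is given. Without Control replicate 1 and NT-3N replicate 1 together, Slc6a4 was at 1.15 and Atoh1 at -0.88. That setting was chosen after seeing the data and leaves a single control, so it holds no spread between controls.

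Of 12 hormones tested outside the 10 genes, 3 had a log2 fold change above 0 and 9 below, with a median of -0.13. Sst, the gene of somatostatin, the hormone of D cells, had log2 signals of 12.82 and 13.02 in Control and of 12.01, 12.54 and 12.47 in NT-3N. All 3 NT-3N values of Sst were below both controls, with a log2 fold change of -0.58 (adjusted p = 0.384 by limma). Penk, the gene of the opioid precursor proenkephalin, was at -0.51 (adjusted p = 0.591 by limma).

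Of 18 transcription factors tested, 6 were above 0 and 12 below, with a median of -0.058. Atoh1, the factor that directs progenitors to the secretory lineages, including goblet cells, had log2 signals of 12.44 and 12.86 in Control and of 11.69, 11.89 and 12.06 in NT-3N. All 3 NT-3N values of Atoh1 were below both controls, with a log2 fold change of -0.76 (adjusted p = 0.225 by limma). The 8 goblet cell markers, whose cells depend on Atoh1, were all below 0 by sign, with a median of -0.16 and none past an adjusted p of 0.05. Their summed signal was 1303000 to 1416000 in Control and 960100 to 1457000 in NT-3N, and their part in the Atoh1 values was not tested. Etv1 was at -0.43 (adjusted p = 0.342 by limma).

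Of 16 genes of granules and prohormone processing tested, 2 were above 0 and 14 below, with a median of -0.27. Pcsk1n, an inhibitor of the prohormone convertase PC1, was at -0.33 (adjusted p = 0.432 by limma), and Syp, the vesicle protein synaptophysin, at -0.24 (adjusted p = 0.561 by limma). Many of these genes are also expressed in enteric neurons, whose marker list had a median of -0.14 with 10 of 11 genes below 0. Snap25 stood in both lists, and the part of neurons in the granule values was not tested.

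Of 8 genes of amine synthesis and transport tested, 6 were above 0 and 2 below, with a median of 0.064. Slc6a4, the serotonin transporter that takes serotonin back up into epithelial cells and neurons, had log2 signals of 8.85 and 8.45 in Control and of 9.15, 9.55 and 9.62 in NT-3N. All 3 NT-3N values of Slc6a4 were above both controls, with a log2 fold change of 0.79 (adjusted p = 0.289 by limma). Hdc, the enzyme of histamine synthesis, had log2 signals of 4.45 and 4.30 in Control and of 5.96, 5.17 and 5.36 in NT-3N. Its NT-3N values were all above the controls as well, with a log2 fold change of 1.12 (adjusted p = 0.328 by limma). Hdc also stood in the mast cell list, whose median was 0.45, and the part of mast cells in its values was not tested. Tph1, the enzyme that makes the serotonin carried by Slc6a4, overlapped between the groups on the same arrays.

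Of 9 nutrient receptors tested, 2 were above 0 and 7 below, with a median of -0.14. The short-chain fatty acid receptor genes Ffar3 and Ffar2 were at -0.31 and -0.41 (adjusted p = 0.624 and 0.625 by limma). Gpr119, a receptor for lipid amides on L cells, was not well above background on Control replicate 2, so no fold is given. Its log2 signals were 3.84 and 2.99 in Control and 4.67, 4.82 and 4.48 in NT-3N (adjusted p = 0.360 by limma). Of 10 hormone receptors tested, 3 were above 0 and 7 below, with a median of -0.24. Glp2r, the receptor of the Gcg product GLP-2, had log2 signals of 10.04 and 10.09 in Control and of 8.69, 9.56 and 9.51 in NT-3N. All 3 NT-3N values of Glp2r were below both controls, with a log2 fold change of -0.81 (adjusted p = 0.427 by limma). Glp2r is expressed by enteric neurons and stromal cells rather than by most epithelial cells, and the 7 smooth muscle markers, all of them tested, had a median of -0.30. Their summed signal was 469300 to 484700 in Control and 340000 to 431100 in NT-3N, without overlap for 6 of the 7 genes (85.7%, beside 28.4% of all features), and the part of these cells in the Glp2r values was not tested. Npy2r, a receptor of peptide YY, was not well above background on Control replicate 1, with log2 signals of 3.06 and 5.60 in Control and of 6.73, 6.03 and 6.10 in NT-3N. The controls stood far apart, and the groups did not differ past the threshold (adjusted p = 0.474 by limma). Htr4, a serotonin receptor, was at 0.37 (adjusted p = 0.608 by limma). Gpr119 and Npy2r were outside the rule for named genes and were named after their values were seen.

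**Figure D5:**
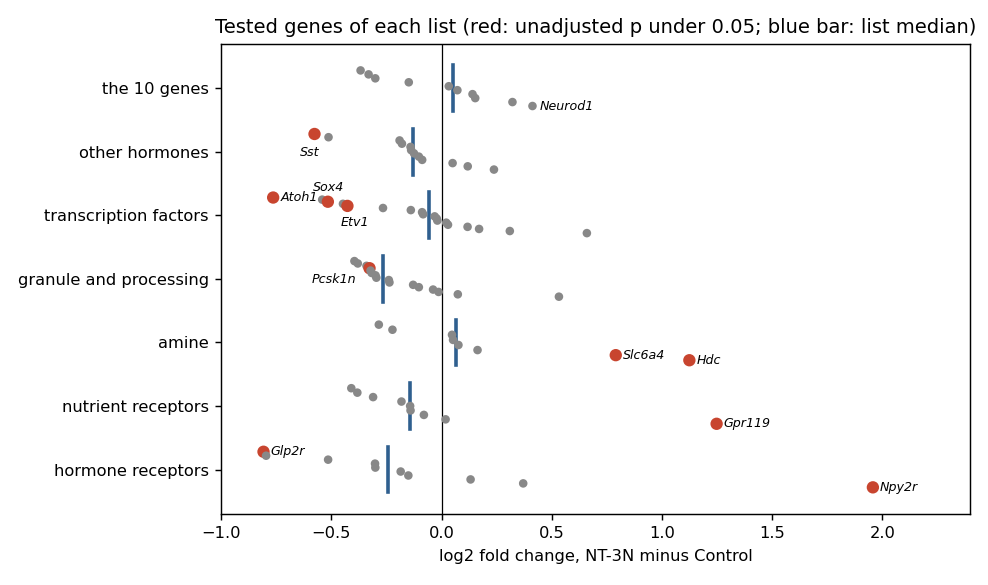
Log2 fold change of NT-3N over Control (horizontal axis) for every tested gene of the 10 and of the 6 other lists, with red points for an unadjusted p under 0.05 and a blue bar for the median of each list (1 of the 2 controls of Gpr119 and of Npy2r was not well above background). None of the points passed an adjusted p of 0.05, and 14 of the 16 granule genes lie below 0.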

How the data were processed

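RNA of whole colon from 2 Control and 3 NT-3N 3 hr samples was hybridised singly to single-colour arrays. The authors deposited scanner files made with Agilent Feature Extraction 11.0.1.1, whose background-subtracted intensity is not scaled between arrays, and a table of log2 values for 37380 probes, used here as an alternative. Control and outlier spots (69 to 184 of 59305 spots per array) were left out, the intensity was log2-transformed, spots of a probe were averaged and arrays were quantile-normalized. Probes well above background on at least 2 of 5 arrays, with a value on both Control and at least 2 NT-3N arrays, were kept. Probes were named by unversioned RefSeq accession (assembly GRCm38.p6), which named 32994 of 56605. The brightest probe stood for a gene. The small number of arrays limits the precision.

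The test was limma 3.58.1 (R 4.3.3), two-sided, with lmFit and a trended eBayes, adjusted by Benjamini-Hochberg over 32917 features. limma took the place of the local-pooled-error test of the methods, since it gives adjusted p. The fit was also run on simulated data with 200 changed features, and the outcome is not reported here. Alternatives covered scaling, background correction, the filter on dim probes, the choice of probe, the fit and each array left out. The 10 genes and all gene lists were chosen with earlier results of these data known. Beside the 10 genes, the text names the 2 genes of each list with the smallest p among those well above background on all arrays, and the 3 features nearest in profile to each gene with a range of at least 1 on the log2 scale, of which 1 is not reported here. The marker lists of tuft cells and B cells had median log2 fold changes of -0.11 and 1.03, none called. The dose unit and the RNA reagent differ between labels and methods.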

Additional observations from a re-analysis of the deposited data

How the results depend on the processing

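Under 19 alternatives none of the 10 genes passed an adjusted p of 0.05, and of 190 fold changes recomputed 173 kept their direction and 17 changed it. Among the 173 are values from the other filters on dim probes, no intensity trend, robust eBayes and every probe tested. Those settings left the fold changes of the 10 genes as they were, so their direction could not change. Insl5 and Neurod1 were above 0 and Sct below 0 under every one of the 19 alternatives. Genes of the 10 with an unadjusted p under 0.05 numbered 1 with array weights (beside 15.2% of all features), 3 with the replicate block (7.56%), 6 without Control replicate 1 and NT-3N replicate 1 (chosen after seeing the data, 15.2%), and 0 to 3 with 1 array left out (6.07% to 15.7%). Features called over the whole array numbered 47, against 2 without the filter on dim probes, 2 without the intensity trend, 176 with array weights, 0 with the replicate block, 368 without both of those arrays, and 0 to 116 with 1 array left out (0 without NT-3N replicate 3, 1 without NT-3N replicate 2). Other enteroendocrine genes called were 2 without both arrays, and 0 to 1 with 1 array left out. The cause of these differences was not tested.

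No label ties mice of 1 replicate number together, and the deviations of same-numbered arrays correlated at 0.13 and 0.036. With the number as a replicate block, log2 fold changes were -0.012 for Pyy, -0.011 for Cck and -0.057 for Neurog3. Without Control replicate 1 and NT-3N replicate 1 together the log2 fold change was -0.027 for Gcg and -0.13 for Cck. With 1 array left out it ran from -0.79 to 0.19 for Chga, -0.59 to 0.30 for Chgb, -0.93 to 0.19 for Tph1, -0.11 to 0.22 for Pyy, -0.098 to 0.38 for Gcg, -0.22 to 0.52 for Cck and -0.057 to 0.20 for Neurog3, and the median of the 10 from -0.16 to 0.21. Where a Control array was left out, the remaining one was taken to vary as the NT-3N mice do. The normexp correction was run on median spot signal. With 2 controls, the 95% intervals of the fold run as wide as 0.402 to 1.49 for Tph1 and 0.807 to 2.19 for Neurod1.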
